A study of Rattus norvegicus with 8 samples.

Results

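ATP-binding cassette (ABC) transporters are membrane pumps that spend ATP to move bile salts, lipids, drugs, peptides and metal complexes, and a few members without membrane spans act on ribosomes instead. The genes described here are those whose array accession matched a rat gene symbol made of Abc, a letter from a to g and a number. The rule found 54 of the 30367 probes on the array, for 42 of its 15168 named genes, in 7 subfamilies. After a filter on dim probes, 40 of the 42 genes were kept among the 22873 features of the comparison. Abca15 and Abcg8 did not pass that filter and are given with their values.

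The RNA came from 8 liver tissue samples of 22 week old male rats and was hybridised to 1 single-colour array per sample. High-fat diet for 14 weeks gave 5 samples, with the disease state labelled NAFLD (non-alcoholic fatty liver disease), and standard chow for 14 weeks gave 3 control samples. The labels give neither a rat strain nor the composition of either diet, and nothing in them says that the samples are separate animals, so a p-value reflects only how far these samples vary. The series title asks about genes of glucose and lipid metabolism in fatty liver, and the genes described here include the pumps that export bile salts, phospholipid and cholesterol and bring fatty acids into peroxisomes.

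In liver, the canalicular membrane of hepatocytes carries the pumps that form bile. Abcb11 exports bile salts, Abcb4 phosphatidylcholine, Abcg5 with Abcg8 cholesterol, and Abcc2 conjugated organic anions. Other members sit on the blood side of the cell (Abcc3, Abcc4, Abcc6, Abca1), in peroxisomes (Abcd2, Abcd3) and in mitochondria (Abcb6, Abcb8, Abcb10).

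Promoter sequences are shown for 2 pairs of neighbouring genes, for the reason given with each pair. They are RefSeq sequences of the GRCr8 assembly, 250 bases before to 50 after the annotated start of each gene, and 33 of the 42 genes had an entry. Abcb1a and Abcb1b are neighbouring rat genes for drug-exporting P-glycoproteins, at chr4:26397599-26397898 and chr4:26279980-26280279, both on the minus strand. Their windows are shown because 2 probes of Abcb1b gave unequal diet differences. Both probes carry the same accession, and no link between the windows and that inequality was tested. Capitals mark CCAAT and GGGCGG, searched on both strands.
Abcb1a: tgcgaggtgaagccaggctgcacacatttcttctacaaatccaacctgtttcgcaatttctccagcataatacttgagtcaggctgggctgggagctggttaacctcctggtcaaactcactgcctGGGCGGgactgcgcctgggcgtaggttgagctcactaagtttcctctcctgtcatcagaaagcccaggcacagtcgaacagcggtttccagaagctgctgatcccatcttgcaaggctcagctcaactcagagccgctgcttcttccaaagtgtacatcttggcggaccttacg
Abcb1b: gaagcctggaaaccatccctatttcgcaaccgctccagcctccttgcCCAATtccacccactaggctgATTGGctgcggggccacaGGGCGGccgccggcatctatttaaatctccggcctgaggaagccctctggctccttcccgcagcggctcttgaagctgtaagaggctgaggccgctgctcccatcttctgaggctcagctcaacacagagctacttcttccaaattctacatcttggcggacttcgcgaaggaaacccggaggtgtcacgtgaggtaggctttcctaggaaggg
The Abcb1b window held CCAAT at 2 places and GGGCGG at 1, and the Abcb1a window held GGGCGG at 1 place and CCAAT at 0. Of all 33469 promoter windows of that length, 37.5% held CCAAT and 33.1% held GGGCGG. A local alignment of both windows paired 69 bases, of which 61 were identical.

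Abcg5 and Abcg8, whose proteins work as one sterol pump, lie head to head on opposite strands, and their annotated starts are 206 bases apart. Their windows share 295 bases, so 1 is printed, that of Abcg5 on the plus strand at chr6:15717686-15717985. It is shown because the Abcg5 probe was above background on every array and the Abcg8 probe on none. No link between the window and these readings was tested. Capitals mark GATAA on either strand, found at 2 places here and in 26.5% of all windows.
Abcg5: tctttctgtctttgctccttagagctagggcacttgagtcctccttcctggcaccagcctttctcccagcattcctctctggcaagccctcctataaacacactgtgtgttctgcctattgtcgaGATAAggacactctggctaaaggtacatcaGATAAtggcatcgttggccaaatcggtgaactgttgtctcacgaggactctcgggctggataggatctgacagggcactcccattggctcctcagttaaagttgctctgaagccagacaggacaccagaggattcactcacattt
A match describes letters in a window and not a binding site.

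Each value below is a log2 signal from which the 75th percentile of the same array was subtracted, and 1 unit is a 2-fold difference. Values of different probes are not compared with each other, because probes differ in brightness. Overall brightness went with diet. The 75th percentile ran from 725 to 1050 intensity units on high-fat arrays, against 278 to 559 on chow arrays, and 79.1% to 92.8% of probes were well above background, against 66.9% to 71.8%. For both measures the exact permutation p was 0.0179 (two-sided, 56 splits, the smallest they allow, 0.0179 after adjustment over the 2 measures). Arrays whose file headers give the same scan date and time are called a slide here, and no slide label was read. By this grouping high-fat arrays 1 and 4 formed 1 slide, high-fat arrays 2, 3 and 5 another, and all chow arrays one more. Slide in this sense and diet cannot be told apart. The slide of high-fat arrays 1 and 4 was scanned on another day than all other arrays. All 6 listed hepatocyte markers (such as Alb and Ttr) were above background on all 8 arrays, with summed linear signals of 486 to 568 on high-fat diet and 508 to 836 on chow and log2 fold changes from −0.55 to −0.19. Of the 51 marker genes of hepatocytes, other liver cells, blood cells, fat, pancreas and intestine that were listed, 43 were kept and 0 passed the test for diet. Summed linear signals of the 4 kept markers of sinusoidal endothelium were 39.2 to 45.0 on high-fat diet and 46.2 to 48.1 on chow, without overlap, and those of the 7 macrophage markers were 21.4 to 30.7 on high-fat diet and 26.8 to 37.5 on chow. Bright markers weigh most in such sums, and the single markers went both ways. Log2 fold changes ran from −0.28 (Fcgr2b) to 0.19 (Pecam1) for endothelium and from −0.59 (Clec4f) to 0.36 (Cd68) for macrophages. The part of these cell types in the results below was not tested. In bulk tissue, fewer cells of a type and less RNA per cell cannot be told apart.

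No ABC gene passed the test for diet. With limma's moderated test across all features, 0 of 40 genes had an adjusted p under 0.05, against 3.56% of all tested features and 1.87% of those with a gene symbol. At an unadjusted p under 0.05 there were 9 of 40 genes, 5 of them in subfamily C. This is 22.5%, against 20.2% of all features and 17.6% of those with a gene symbol. The 2 diets did not overlap in 6 of 40 genes (15%, against 17.1% of all features and 15.6% of those with a gene symbol). Abcb1b, Abcc4 and Abcc12 were higher on every high-fat array than on any chow array (7.94% of all features), and Abcb6, Abcc6 and Abcd3 were lower (9.17%). Among features with a gene symbol these 2 shares were 5.02% and 10.5%. Abcc12, and Abca7 among the 9 genes, were above background on 0 chow arrays and passed the filter only through the high-fat arrays, so their place in these counts is no measured diet difference. Of the 40 genes, 20 had a positive and 20 a negative log2 fold change, with a median of 0.01 beside −0.01 for all features, of which 50.5% were negative. Features with a gene symbol had a median of −0.04, and 54.3% of them were negative. Abca7, Abcc12 and Abcd2, all above background on 0 chow arrays, are among the 20 genes with a positive value, which for them is no measured diet difference. With only probes above background on all 8 arrays, 33 ABC genes were kept. Their median was −0.05, beside −0.07 for all features kept that way. Single genes ran from −0.73 (Abca4) to 1.20 (Abcb1a). The 95% interval of the diet difference lay within 2-fold either way for 21 of the 40 genes, and for the rest it reached to 2-fold or beyond. The shares at an unadjusted p under 0.05 and without overlap in either direction are near those of all features. For the intervals no share over all features was computed.

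**Figure D1:**
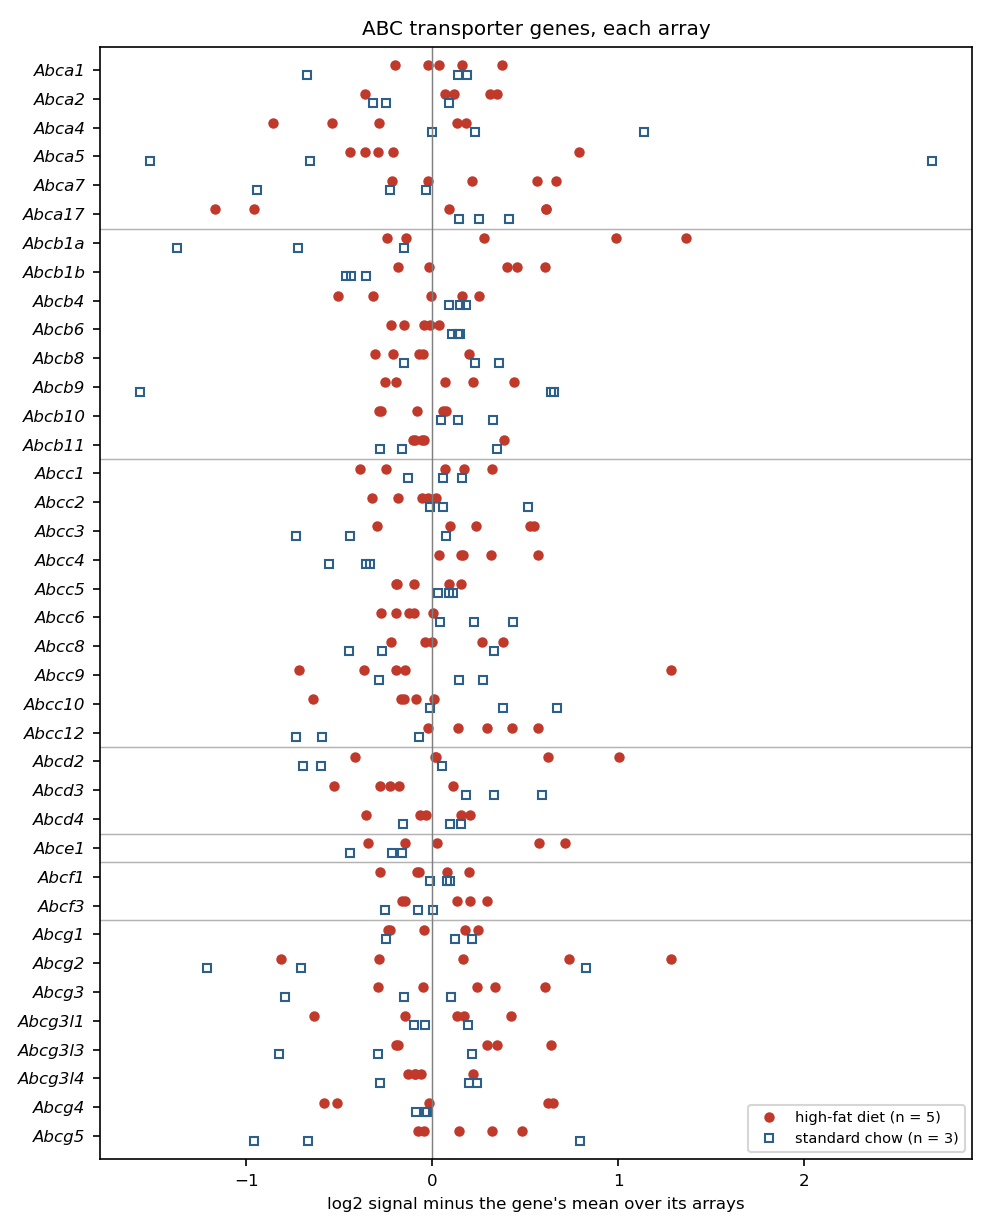
Of the 40 kept ABC genes 38 are drawn, top to bottom by subfamily A to G, with each point 1 array, as log2 signal minus the mean of that gene over its arrays. Filled circles are the 5 high-fat arrays and open squares the 3 chow arrays, and they stand clear of each other in 6 genes, among them Abcb1b, Abcc4 and Abcd3.

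**Figure D2:**
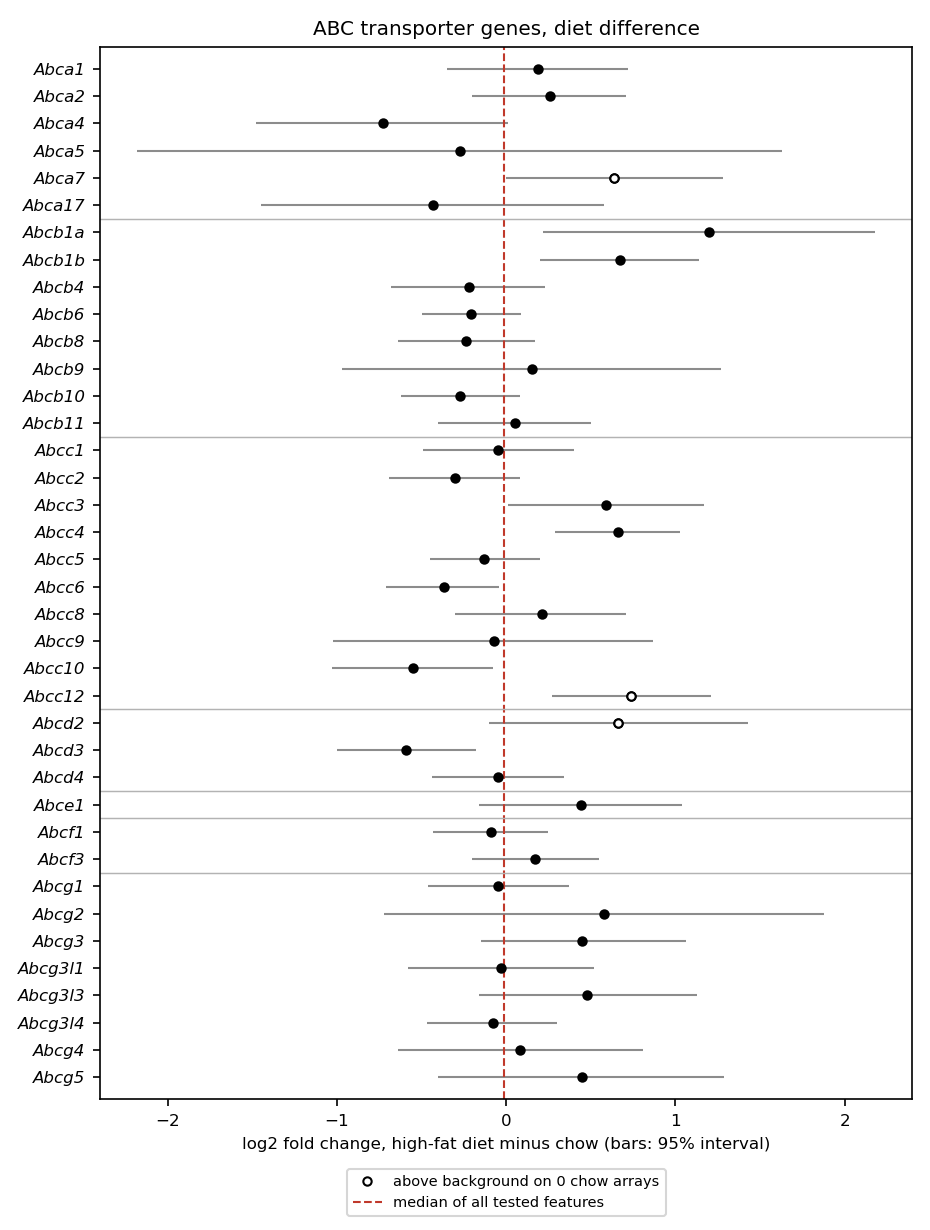
Log2 fold change, high-fat diet minus chow, of 38 of the 40 kept ABC genes (points) with the 95% interval of limma's model (bars). Open points are genes above background on 0 chow arrays, whose difference is not a measured one. The dashed line is the median of all tested features, −0.01, and the genes spread to both sides of it, from −0.73 to 1.20.

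Among the multidrug pumps of subfamily B, the 2 probes of Abcb1b gave diet differences of unequal size. The brighter probe stands for the gene in the comparison. Taken in the order of the replicate numbers, here and below, it read 3.52, 3.47, 3.67, 3.05 and 2.88 on high-fat diet, against 2.71, 2.63 and 2.60 on chow. Every high-fat value lay above every chow value. The high-fat mean was 3.32 ± 0.34 (SD, n = 5), against 2.65 ± 0.06 (SD, n = 3) for chow, a log2 fold change of 0.67 ± 0.21 (SE, limma adjusted p = 0.118). The second probe carried the same accession and read 2.79, 2.32, 3.09, 2.36 and 1.81 on the high-fat arrays, and −0.02, −1.30 and −2.81 on the chow arrays. All 8 of these readings were well above background. The high-fat mean here was 2.47 ± 0.49 (SD, n = 5), against −1.38 ± 1.40 (SD, n = 3) for chow, and the chow arrays lay far apart here and close together on the other probe. With each probe as its own feature, the second probe was 14.4-fold higher on high-fat diet (log2 fold change 3.85 ± 0.56 SE, 95% interval 2.57 to 5.13, limma adjusted p = 0.00994). It was 1 of 884 features that passed there (3.45% of 25627), and it kept an adjusted p under 0.05 with any single array left out. Chow arrays 1 and 3 set its size, with a fold of 23.1 without chow array 1 and 8.79 without chow array 3. With slide as a random block the adjusted p was 0.25.

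The gap between the 2 Abcb1b probes, 3.18 on the log2 scale, was the widest of the 2122 genes with at least 2 kept probes, whose median gap was 0.30. The next ABC genes in that order were Abcc5 at 0.75 and Abcg3l4 at 0.60. The dimmer Abcc5 probe was higher on every high-fat array than on any chow array (difference 0.62). Its limma adjusted p was 0.238 with each probe as its own feature. The brighter Abcc5 probe, which stands for the gene, overlapped between diets (−0.13). With the mean of both probes in place of the brighter one, Abcb1b passed (log2 fold change 2.26, adjusted p = 0.0113, where 3.52% of all features passed). With the main processing, the choice of probe thus decides whether the gene is called. The brighter probe alone passed with array weights (adjusted p = 0.0364, where 16.5% of all features passed). It also passed with normexp and quantile normalization (0.0384, where 9.25% passed). The scanner files name the probes without their sequences, and whether either also binds the RNA of Abcb1a was not tested.

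Abcb1a, the paralogue of Abcb1b, had 1 probe. It read −1.47, −2.70, −2.18, −1.09 and −2.60 on high-fat diet, against −3.83, −3.18 and −2.61 on chow, and the diets overlapped by 1 high-fat array. The log2 fold change of 1.20 ± 0.43 (SE) had the largest size among the 40 genes but not the smallest spread (adjusted p = 0.17). Within the high-fat group the slide of arrays 1 and 4 averaged −1.28 and the slide of arrays 2, 3 and 5 averaged −2.49. Against chow, the arrays of the first slide alone gave 1.93 (adjusted p = 0.0402, where 8.66% of features passed). With a normexp background in place of the scanner software's the difference was 0.05 (adjusted p = 0.915).

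**Figure D3:**
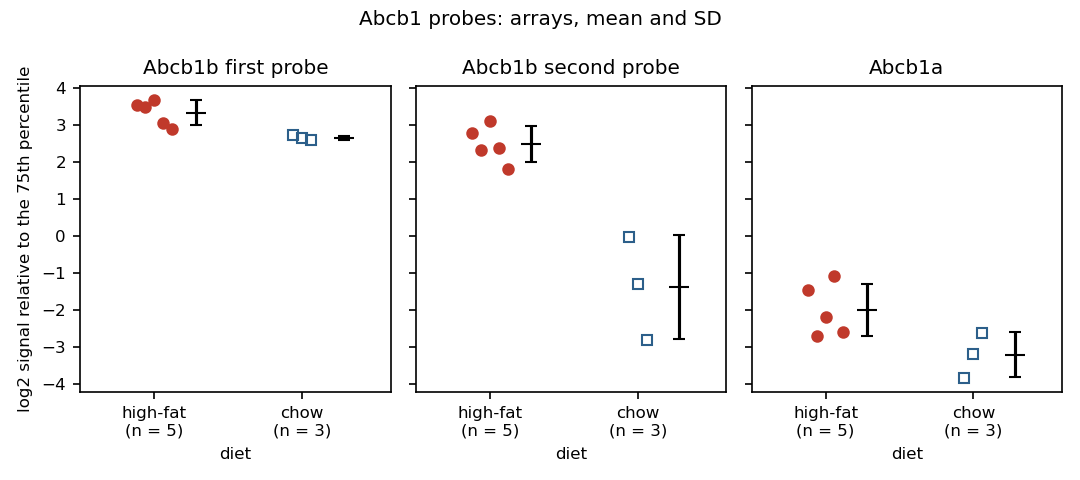
Log2 signal of both Abcb1b probes and of the Abcb1a probe, on 1 shared axis. Points are arrays, 5 on high-fat diet and 3 on chow, and the bars give mean and SD. The second Abcb1b probe spreads from −2.81 to −0.02 on chow, while the first stays between 2.60 and 2.71.

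**Figure D4:**
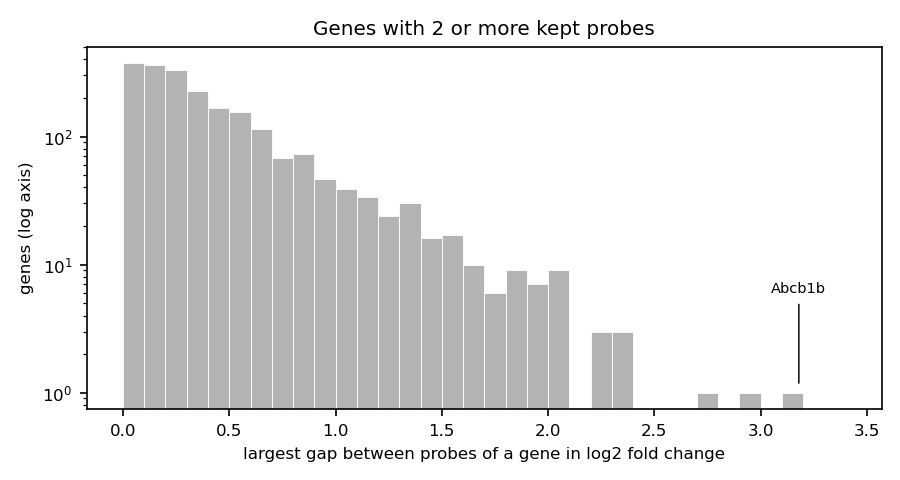
Number of genes (log axis) by the largest gap in log2 fold change between their probes, for 2122 genes with at least 2 kept probes. Abcb1b stands at 3.18, at the right end, while the median gene has a gap of 0.30.

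The canalicular pumps of bile formation showed no diet difference that passed. Abcb11, the bile salt export pump, read 2.22, 2.17, 2.66, 2.18 and 2.23 on high-fat diet and 1.99, 2.62 and 2.11 on chow. High-fat array 3 and chow array 2 were the high readings in their groups. The log2 fold change was 0.05, with a 95% interval from −0.40 to 0.50 (adjusted p = 0.918), and its sign turned in several alternatives. Abcb4, the phosphatidylcholine floppase, read 1.47, 1.38, 1.21, 0.90 and 0.71 on high-fat diet and 1.31, 1.37 and 1.40 on chow. Its high-fat arrays lay on both sides of the close chow values (log2 fold change −0.22, 95% interval −0.68 to 0.23, adjusted p = 0.585). Abcc2, the exporter of conjugated bilirubin, read 3.95, 3.82, 3.98, 4.02 and 3.68 on high-fat diet and 3.99, 4.06 and 4.52 on chow. Only high-fat array 4 reached into the chow range (log2 fold change −0.30, 95% interval −0.69 to 0.08, adjusted p = 0.357).

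Abcg2, which exports sulphated compounds and urate, was among the most variable members in both groups. Its readings were −0.43, −0.88, −1.41, 0.69 and 0.14 on high-fat diet and 0.23, −1.30 and −1.81 on chow, so each group spanned about as much as the other. The 95% interval of its log2 fold change, 0.58, ran from −0.72 to 1.88 (adjusted p = 0.63).

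On the blood side of the hepatocyte, Abcc4, a pump for cyclic nucleotides and bile salts, had the smallest adjusted p of the family, 0.0669. It read −0.96, −1.09, −0.97, −0.56 and −0.81 on high-fat diet, against −1.46, −1.68 and −1.48 on chow. All high-fat arrays lay above all chow arrays, with means of −0.88 ± 0.20 (SD, n = 5) and −1.54 ± 0.13 (SD, n = 3) and a log2 fold change of 0.66 ± 0.16 (SE, 95% interval 0.29 to 1.03, 1.58-fold). The second probe of Abcc4 read −4.39, −4.35, −3.76, −4.13 and −3.95 on high-fat diet and −4.51, −4.94 and −5.19 on chow. It also showed no overlap, with a difference of 0.77, but it was above background on only 1 chow array (adjusted p = 0.0972 with each probe as its own feature). The gene passed in 3 of the alternatives: array weights (adjusted p = 0.0308, where 16.5% of all features passed), normexp with quantile normalization (0.0334, where 9.25% passed) and the second high-fat slide alone (0.0492, where 12.7% passed).

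Abcc3, a blood-side exporter of glucuronides and bile salts, read −4.21, −3.78, −3.76, −4.60 and −4.07 on high-fat diet and −4.75, −4.23 and −5.04 on chow. Its values overlapped (log2 fold change 0.59 ± 0.25 SE, adjusted p = 0.242), and it was above background on 2 of the 3 chow arrays. With a normexp background its log2 fold change was −0.33. Abcc6, needed for release of ATP from hepatocytes, read 3.72, 3.59, 3.52, 3.62 and 3.44 on high-fat diet, against 3.94, 3.76 and 4.15 on chow. The diets nearly touched without overlapping, and the log2 fold change was −0.37 ± 0.15 (SE, adjusted p = 0.199). Abcc1, a glutathione-conjugate exporter of many tissues, read −2.26, −1.94, −1.84, −2.40 and −1.69 on high-fat diet and −1.85, −2.14 and −1.95 on chow. The diets overlapped fully on this probe (log2 fold change −0.05, 95% interval −0.49 to 0.40).

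Sterol transporters of subfamilies A and G did not differ beyond their spread. Abca1, which loads cholesterol onto apolipoprotein A-I, read 0.21, 0.45, 0.57, 0.39 and 0.79 on high-fat diet and 0.60, 0.55 and −0.26 on chow. Chow array 3 was the low reading, and without it the log2 fold change of 0.19 (adjusted p = 0.722) turned to −0.09. Abcg1, which passes cholesterol to HDL, read −0.07, −0.06, 0.12, 0.41 and 0.34 on high-fat diet and 0.29, 0.38 and −0.08 on chow (log2 fold change −0.05, 95% interval −0.46 to 0.37). Abcg5 read −0.01, 0.15, −0.19, −0.38 and −0.41 on high-fat diet and −1.29, 0.46 and −1.0 on chow. Its chow arrays spread more than its high-fat arrays (SD 0.94 against 0.24), and the log2 fold change was 0.45, with a 95% interval from −0.40 to 1.29 (adjusted p = 0.558).

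Abcg8, the partner of Abcg5, was above background on 0 of 8 arrays with its only probe, so its level was measured in neither diet. Little Abcg8 RNA and a probe that does not report it cannot be told apart here. The readings were −8.27, −7.83, −8.43, −8.15 and −8.00 on high-fat diet and −7.03, −6.87 and −6.57 on chow. Without a filter on dim probes this difference of −1.31 passed (adjusted p = 0.00911, where 4.07% of features passed). The negative control spots of the same arrays had medians of −8.53 to −7.92 on high-fat diet and −7.08 to −6.64 on chow, and the Abcg8 readings lay among them or close by. Of the 1926 probes of the array that were above background nowhere, 95.7% read lower on high-fat diet, with a median difference of −0.80. The third probe of Abcc9, also above background on 0 arrays, differed by −1.29.

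Subfamily D, which holds the peroxisomal pumps and the lysosomal Abcd4, had 4 kept genes with a median log2 fold change of −0.18. This median includes Abcd2, which was above background on 0 chow arrays. With only probes above background on all 8 arrays it was −0.30. Abcd3, a major protein of the liver peroxisome membrane and a carrier of branched-chain acyl-CoA and bile acid precursors, read 3.88, 3.59, 3.54, 3.49 and 3.24 on high-fat diet, against 4.36, 3.95 and 4.10 on chow. All high-fat arrays lay below all chow arrays, with means of 3.55 ± 0.23 (SD, n = 5) and 4.13 ± 0.21 (SD, n = 3). The log2 fold change was −0.59 ± 0.18 (SE, 95% interval −1.0 to −0.18, adjusted p = 0.118). It kept its sign in all alternatives and passed in 3, with array weights (adjusted p = 0.0184), with normexp and quantile normalization (0.014) and with the second high-fat slide alone (0.0498).

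Abcd2, which carries polyunsaturated acyl-CoA, read −5.54, −5.55, −4.94, −5.98 and −4.56 on high-fat diet and −6.16, −6.26 and −5.51 on chow. It was above background on 3 high-fat arrays and 0 chow arrays. Its high-fat mean did not exceed the lowest signal above background on the chow arrays, so no fold is given. Abcd4, a lysosomal transporter of cobalamin, had a log2 fold change of −0.05 (adjusted p = 0.902).

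The mitochondrial members of subfamily B given here showed small log2 fold changes. Abcb6, a porphyrin transporter, read 1.01, 0.96, 0.93, 0.82 and 0.75 on high-fat diet and 1.11, 1.12 and 1.08 on chow, without overlap but with a log2 fold change of only −0.21 ± 0.13 (SE, adjusted p = 0.414). Its second probe overlapped between diets (difference −0.05). Abcb10, which takes part in haem synthesis in the inner membrane, read 1.59, 1.43, 1.23, 1.57 and 1.24 on high-fat diet and 1.84, 1.65 and 1.56 on chow (log2 fold change −0.27, adjusted p = 0.364). Only high-fat arrays 1 and 4 reached the lowest chow reading.

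Abcb8, of the inner mitochondrial membrane, read −2.62, −2.38, −2.52, −2.36 and −2.11 on high-fat diet and −1.95, −2.46 and −2.08 on chow, with overlap (log2 fold change −0.24, adjusted p = 0.505).

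Abca7, Abca15, Abcc12, Abcd2 and Abcg8 were above background on 0 chow arrays with every probe they have, 5 of 42 genes. By probe the count was 8 of 54 (14.8%, against 25.6% of all probes on the array), and 2 of the 54 were above background nowhere (3.7%, against 6.34%). Abca7, a lipid transporter of phagocytes, read −4.93, −4.74, −4.15, −4.50 and −4.05 on high-fat diet, above background on all 5 arrays, and −4.75, −4.94 and −5.66 on chow. On chow arrays 1 and 2 these readings lay above the dimmest level of any probe above background there (−5.09 and −5.04). They were still not above background, so that level is no limit for this probe and no fold is given. With a normexp background the difference between the group means was −0.39, which is no measured diet difference either.

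Abcc12, a member whose substrate is poorly known, read −5.52, −5.20, −4.93, −5.36 and −5.07 on high-fat diet and −6.09, −6.23 and −5.57 on chow. Each of the 5 high-fat readings was above background. Their mean lay below the dimmest level above background of the chow arrays, so no fold is given. Abca15 read −7.04, −8.05, −6.06, −8.28 and −5.83 on high-fat diet, above background on 2 arrays, and −6.89, −7.20 and −6.78 on chow.

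**Figure D5:**
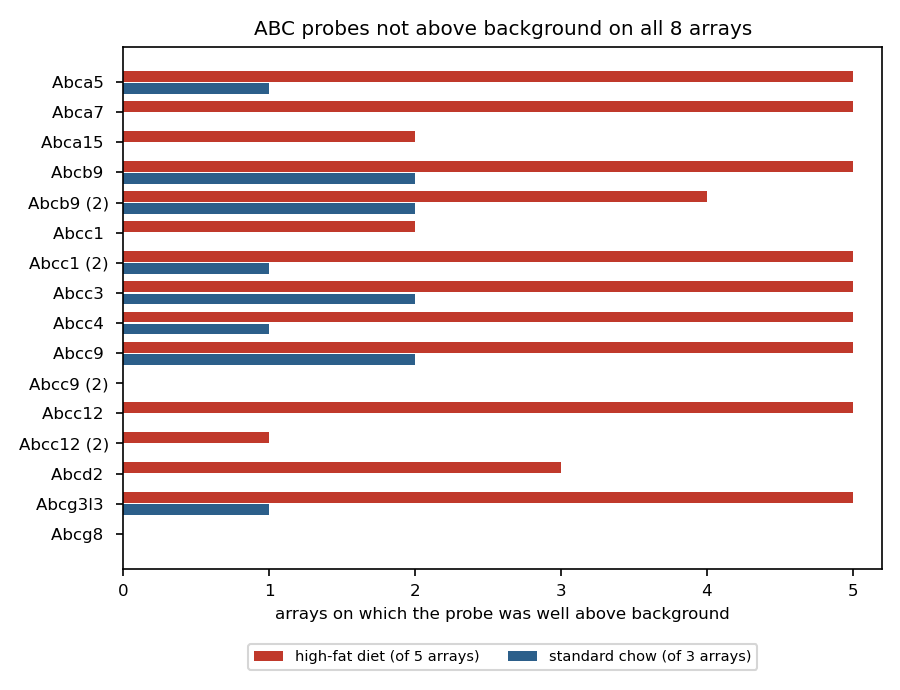
Number of arrays on which a probe was well above background, for the 16 ABC probes that were not above background on all 8 arrays. Upper bars are high-fat diet (of 5 arrays), lower bars chow (of 3), and a number in brackets marks a further such probe of the same gene. Abcg8 and 1 probe of Abcc9 have no bar, and each of the others was above background on a larger share of the high-fat arrays than of the chow arrays. The array as a whole went the same way, with 79.1% to 92.8% of all probes above background on high-fat arrays, against 66.9% to 71.8% on chow arrays.

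A further 18 kept genes, Abcd4 among them, had log2 fold changes from −0.73 to 0.48 and adjusted p from 0.189 to 0.962. Abce1, which splits ribosomes after translation ends, was 0.44, and Abcf1 and Abcf3, which act on translation, were −0.09 and 0.17. Abcc10, a broad-specificity exporter, was −0.55 ± 0.21 (SE, adjusted p = 0.189). Abca4, the retinoid flippase of photoreceptors, was −0.73 ± 0.33 (SE, adjusted p = 0.256). Abcc8 and Abcc9, the sulphonylurea receptor subunits of potassium channels, were 0.21 and −0.07. The Abcg3 group, half-transporters found in rodents, is made of close paralogues whose probes may share targets, and its 4 kept genes ran from −0.08 to 0.48.

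Within the high-fat group, 10 of 40 genes differed by over 0.5 between the means of the 2 slides (25%, against 42% of all features), which also differ in scan day. Abca17 was lower on the slide of arrays 1 and 4 by 1.50 and Abcg4 by 0.96, while Abce1 was 0.80 higher there. Abca17 (−1.33, adjusted p = 0.0199) and Abce1 (0.92, 0.0361) passed against chow with that slide alone. With the other slide alone Abca17 was 0.17. By subfamily the median log2 fold changes were −0.04 in A (6 genes), 0.05 in B (9), −0.06 in C (10), −0.18 in D (4), 0.44 in E (1), 0.04 in F (2) and 0.26 in G (8). Those of A, C and D include Abca7, Abcc12 and Abcd2, which were above background on 0 chow arrays. With only probes above background on all 8 arrays they were −0.12 in A, −0.10 in C and −0.30 in D.

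Other genes of the same transport routes were read from the same fit, in a list of 47 nuclear receptors, uptake carriers, canalicular scaffold proteins, cholesterol acceptors and partners of the mitochondrial, peroxisomal and peptide pumps. Of 42 kept, 0 passed, with a median log2 fold change of −0.18 beside −0.01 for all features and −0.04 for those with a gene symbol. None lay above chow without overlap (against 5.02% of features with a gene symbol), and 7 lay below it (16.7%, against 10.5%). The 7, named after their values were seen, were the sterol receptors Nr1h3 and Nr1h2, the uptake carrier Slco1a1, radixin (Rdx), which anchors Abcc2 at the canaliculus, the motor Myo5b, the plasma enzyme Lcat and the peptide-loading protein Tapbp. Tapbp had the smallest adjusted p of the list, 0.0641 (log2 fold change −0.53 ± 0.13 SE), and its transporter partners Tap1 and Tap2, ABC proteins whose symbols the rule does not match, were −0.17 and −0.06. Nr1h4, the bile acid receptor that drives Abcb11 and Abcb4, was −0.46 ± 0.22 (SE, adjusted p = 0.297). Nr0b2, a repressor that this receptor induces, was −0.93 ± 0.43 (SE, adjusted p = 0.264). The other listed regulators went both ways. Nr1i3 was 0.76 ± 0.34 (SE, adjusted p = 0.256), Nfe2l2 0.36 and Rxra 0.22, while Nr1i2 was −0.26 and Ppara −0.39. The listed partners of cholesterol efflux ran from −0.57 (Lcat) to 0.60 (Scarb1).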

How the data were processed

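RNA of 8 rat liver samples was measured on Agilent single-colour arrays, 1 array for each sample. Per the file headers and the submitters' processing notes, the deposited intensity values (processed signal) came from Agilent Feature Extraction 11.0.1.1, which subtracts the background. The authors' deposited value table holds log2 values with a median of 6.42 in every column and equal 75th percentiles, as quantile normalization leaves them. Each column correlated at 0.995 to 0.999 with the log2 signal of its own array, so the direction is the same, while the centring and background steps behind it are not given in the sources used here. Here log2 of the processed signal minus the 75th percentile of the array was used. Control spots and outlier flags were left out, spots of a probe were averaged, and a probe was kept where it was well above background on at least 3 arrays. The probe with the highest mean signal stood for a gene. Of 30367 probes, 18005 were named through their accession from a RefSeq gene table, for 15168 symbols.

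The diets were compared with limma 3.58.1 in R 4.3.3. Of 22873 features 22871 gave a p, and all of these entered the Benjamini-Hochberg adjustment, with 0.05 as the threshold. The model was tested on simulated data with the spread of these arrays, drawn independently for each array and without slide differences. It recovered 34% of changes of 1 log2 unit and 75% of changes of 2, with 13 false calls. A gene that did not pass may therefore still differ. The simulated figures do not cover differences between slides, which here go with diet. No 2 arrays held identical values. The files used hold no mean signal column, so the normexp alternative took median signals (offset 50). Other alternatives were the dim-probe filter, scaling, the probe rule, slides, array weights, a replicate block and leaving out each array. The number of arrays limits the precision.

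Members and gene lists were chosen with earlier results of these data known. Given by array were genes that passed, did not overlap or were above background on 0 chow arrays, and listed exporters, sterol, peroxisomal and mitochondrial pumps. The rest are given by range, with a few named for their role or slide difference after their values were seen. An additional alternative, the second Abcb1b probe, was chosen after seeing the data. A few members are not reported individually here, and they stay in the counts over the 40 genes.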

Additional observations from a re-analysis of the deposited data

Results flagged for a closer look

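In 6 of 47 kept ABC probes, 1 of the 5 high-fat arrays lay far from the other 4 by Dixon's criterion, which chance meets in about 1 of 20 groups. The 3 chow arrays are too few for this criterion. High-fat array 3 was the distant one in 5 of the 6, and it had the largest share of probes above background of all arrays (92.8%). Whether its brightness plays a part was not tested. Abca5 read −4.69 on high-fat array 3, with the others between −5.92 and −5.69. For Abcb11, the bile salt export pump, it read 2.66, against 2.17 to 2.23. Abcc9 read −1.37 there, against −3.37 to −2.80. Both probes of Abcg3l4 stood out on that array, at −0.72 with the others from −1.25 to −1.15, and at 1.91 with the others from 1.56 to 1.63. Abcc10 was the exception, low on high-fat array 1 at −1.94, with the others from −1.47 to −1.29. All of these values are log2 signals relative to the array's 75th percentile.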

How the results depend on the processing

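Of all features, 815 passed, and the count was 486 with probes above background on all 8 arrays, 149 with a normexp background, 2115 with normexp and quantile normalization, 84 with slide as a random block, 1979 and 2902 with the high-fat arrays of slide 1 or slide 2 only, 3773 with array weights, and 374 to 789 with single arrays left out. The cause was not tested. Of ABC genes, 0 passed in the main comparison and in each leave-one-out fit. The count was 1 without a filter (Abcg8, above background on 0 arrays), 1 with the mean of a gene's probes or with each probe as its own feature (Abcb1b), 5 with normexp and quantile normalization (Abcb1b, Abcb8, Abcc4, Abcc6 and Abcd3, where 9.25% of all features passed), 3 with slide 1 only (Abca17, Abcb1a and Abce1, 8.66%), 3 with slide 2 only (Abcc4, Abcc12 and Abcd3, 12.7%) and 7 with array weights (Abcb1b, Abcc3, Abcc4, Abcc6, Abcc10, Abcc12 and Abcd3, 16.5%). Abcc12 was above background on 0 chow arrays and entered the test only through the high-fat arrays. Its place in these counts is no measured diet difference.

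High-fat and chow samples share replicate numbers 1 to 3, but deviations of same-numbered samples correlated at only 0.05, 0.03 and 0.07, so the numbers were not taken to pair the samples. With the number as a replicate block, 4 features and 0 ABC genes passed, and the second Abcb1b probe had an adjusted p of 0.0592. Over all its alternatives that probe had an adjusted p between 0.00398 and 0.25.

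Normexp moved the median log2 fold change of all features to −0.29. With it the ABC median was −0.16, the mean ABC level differed by −0.15 (0.10 in the main setting), and the medians were −0.38 in A, −0.12 in B, −0.23 in C, −0.41 in D and −0.07 in G. The ABC median was 0.14 with slide 2 only, and −0.02 to 0.10 with single arrays left out. For A that range was −0.23 to 0.36, for B −0.20 to 0.08 and for C −0.09 to 0.06. B was −0.10 with the authors' table, −0.15 with array weights and −0.10 with the mean of probes. C was −0.17 with slide 1 only, 0.17 with slide 2 only, 0.13 with the mean of probes and 0.04 with each probe. E was 0.92 and G 0.04 with slide 1 only, and F was −0.03 with median scaling.

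Single genes kept sign and call in 425 of the gene and setting pairs, turned sign in 43 and passed newly in 19, and with single arrays left out kept them in 281 and turned sign in 23. None of the turned values passed, while Abca17 and Abcc3 passed in other settings, as did Abcc12, which was above background on 0 chow arrays. The same holds for the background of Abca7 and Abcd2, so the values of these genes and of Abcc12 below are no measured diet differences. With normexp the turned values were Abca7 −0.39, Abcb4 0.06, Abcb6 0.10, Abcb9 −0.53, Abcb11 −0.12, Abcc3 −0.33, Abcc12 −0.50, Abcd2 −0.70, Abcf1 0.07, Abcf3 −0.13, Abcg1 0.17, Abcg3l3 −0.50 and Abcg4 −0.36. With normexp and quantile normalization they were Abcb4 0.05, Abcb6 0.10, Abcb9 −0.09, Abcb11 −0.09, Abcc1 0.02, Abcc9 0.04, Abcd2 −0.10, Abcf1 0.09 and Abcg1 0.18. Abcb9 was −0.02 with quantile normalization and −0.10 with the authors' table, and Abcb11 −0.02 with median scaling. With slide 1 only, Abcb11 was −0.04, Abcd4 0.15, Abcf1 0.08 and Abcg4 −0.49, and with slide 2 only Abca17 0.17, Abcc1 0.16, Abcc9 0.20 and Abcg3l1 0.12. The replicate block gave Abcc9 0.02 and Abcg3l1 0.22, array weights Abcb9 −0.27, Abcc1 0.00, Abcg2 −0.09 and Abcg3l1 0.10, and the mean of probes Abcb9 −0.10, Abcc1 0.04, Abcc5 0.25 and Abcg3l4 0.22. Ranges with single arrays left out crossed 0 for Abca1 (−0.09 to 0.34), Abca5 (−1.12 to 0.99), Abcb9 (−0.59 to 0.52), Abcb11 (−0.07 to 0.24), Abcc1 (−0.13 to 0.05), Abcc9 (−0.40 to 0.10), Abcd4 (−0.15 to 0.03), Abcg1 (−0.19 to 0.04), Abcg3l1 (−0.14 to 0.13), Abcg3l4 (−0.25 to 0.01) and Abcg4 (−0.07 to 0.24). The causes were not tested.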
